A study of Homo sapiens with 4 samples.

Results

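Caspases are the cysteine proteases that carry out apoptosis and inflammatory cell death, and the measurements described here are those of 7 caspase genes and APAF1. The members were all probes of the array that are not controls and whose gene name is CASP1, CASP2, CASP4, CASP6, CASP8, CASP9, CASP10 or APAF1, which gave 16 probes (25 spots) of the 41000 probes (43376 spots) on each of the 4 arrays, and 8 of 30982 gene names. Agilent 2-colour arrays compared total RNA of stable N-BLR shRNA clones #3-1 and #4-7 with RNA of an empty vector control, all from HCT116, an established human colon cancer cell line. N-BLR is a long non-coding RNA, and the study used the clones to ask which transcripts depend on it. Each clone was hybridised to 2 arrays, the same control RNA was by the labels on every array, and no dyes were swapped. Each group is a single clone, so a difference between a clone and the control cannot be told apart from a difference between any clones of this line. The labels speak of lentivirus, whereas the methods describe transfection of an shRNA plasmid followed by selection. Both arrays of a clone are biological replicates by the labels and duplicates by the methods, so p-values measure the spread between arrays, which may be technical, and precision is limited by having 4 of them. The knockdown of N-BLR itself was not analysed here.

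Caspases are made as inactive precursors. Initiator caspases are switched on by being brought together on a scaffold: caspase-8 and caspase-10 on death receptors through FADD, caspase-9 on the apoptosome that APAF1 builds around cytochrome c, and caspase-2 on the PIDDosome. Initiators then cut and activate executioners such as caspase-6, which dismantle the cell. Caspase-1 and caspase-4 are inflammatory caspases, which cut gasdermin D and act in the defence of epithelia such as that of the colon against bacteria. The arrays measured the RNA of these genes, not the cutting of the proteins. In RNA from whole cultures, fewer cells with a transcript and less of it per cell cannot be told apart.

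CASP4 gave the largest ratios among the members, and the CASP5 probe was the nearest to it in pattern among the named probes of other genes, so the probes of both are shown. The CASP1 probe is that of their inflammatory relative, and CASP6 is the executioner. All 4 are 60 bases long, run 5′ to 3′ and have at least 1 reading frame with no stop.
CASP4 A_23_P35912: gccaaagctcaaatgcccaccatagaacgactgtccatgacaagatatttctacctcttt
CASP5 A_23_P47304: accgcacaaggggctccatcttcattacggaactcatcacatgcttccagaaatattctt
CASP1 A_23_P202978: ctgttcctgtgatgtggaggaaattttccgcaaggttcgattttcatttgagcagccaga
CASP6 A_23_P500799: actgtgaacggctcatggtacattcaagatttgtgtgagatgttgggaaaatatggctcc
The longest run of bases shared by the CASP4 and CASP5 probes was 5 bases. None of the 16 member probes, nor the CASP5 probe, shared a run of 20 bases with another of the 41000 probes on either strand.

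Log2 ratios are given as Cy5 over Cy3, and by the labels Cy5 held the shRNA clone and Cy3 the empty vector control on every array. The study's text gives E-cadherin and vimentin in the clones the directions opposite to those of Cy5 over Cy3. The single channels went against the labels too. Of 26917 probes well above background in both channels on all arrays, 8.34% differed at least 2-fold between the arrays of clone #3-1 and those of clone #4-7 in Cy3, the channel labelled as the shared control. The share was 0.279% in Cy5, which the labels give to the clone. After loess and Aquantile normalization these shares were 3.84% and 0.0893%. The median absolute difference between the clones' arrays was then 0.22 log2 units in Cy3 and 0.065 in Cy5, beside 0.044 to 0.066 between arrays of the same clone in either channel. Which channel held the clone is therefore not settled by the sources, and the cause was not tested. All values below name the dye, and if the channels were the other way round, higher in Cy5 would read as lower in the clone.

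Of the 14 member probes well above background in both channels on all arrays, all 14 differed more between the clones' arrays in Cy3 than in Cy5 after that normalization, and 11 of 14 did in the processed intensities of the scanner software. The share of all probes that did so was not computed. Over all probes above background the median difference was larger in Cy3 too (0.22 against 0.065), so the count is no result about the caspases.

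**Figure D1:**
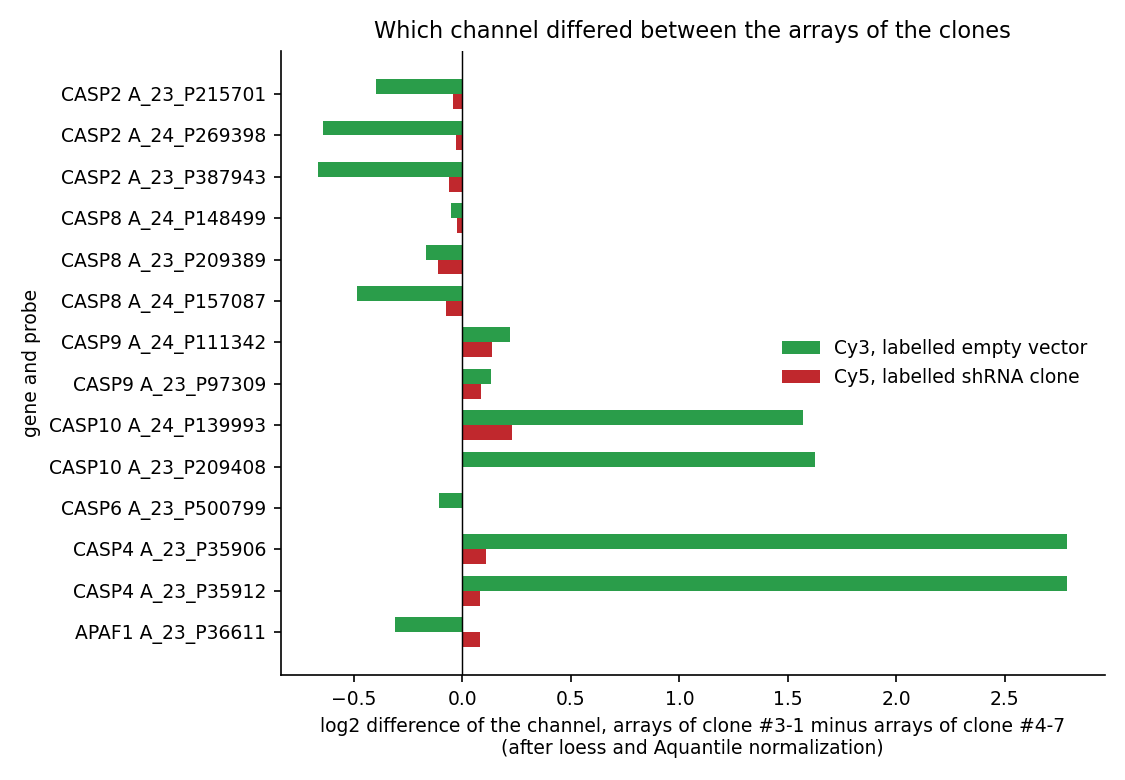
Bars give the log2 difference of each channel between the arrays of clone #3-1 and those of clone #4-7 (mean of 2 arrays minus mean of 2 arrays, after loess and Aquantile normalization) for the 14 member probes above background, with Cy3 in green and Cy5 in red. The green bar is the longer of the pair for all 14 probes, and those of CASP4 reach 2.79. The median difference over all probes above background was larger in Cy3 too.

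A probe was called where limma's moderated p was under 0.001, the threshold of the study's methods. In clone #3-1, 6 of the 16 member probes were called, where 32.6% of all 41000 probes were: 2 were higher in Cy5 (16.2% of all probes) and 4 lower (16.4%). In clone #4-7, 8 of 16 were called against a background of 31.0%, with 4 higher (16.0%) and 4 lower (15.0%). For the difference between the clones, tested as a contrast of its own, 6 of 16 were called against 22.5%, with 2 higher in clone #3-1 (11.0%) and 4 lower (11.5%). The count in clone #3-1 lay near the background and is no result about the caspases. The other counts are limited too. Well above background in both channels on all arrays were 14 of the 16 member probes, beside 26917 of all 41000. Shares called among such probes alone were not computed. Several probes also read the same gene, and calls for the difference fell only on probes of CASP4, CASP10 and CASP2. At an adjusted p under 0.05 (limma with Benjamini-Hochberg adjustment over all probes) the counts were 11, 11 and 9, beside 54.6%, 52.0% and 42.4% of all probes. The median log2 ratio of the members was -0.05 in clone #3-1 and -0.07 in clone #4-7, where the medians over all probes were both 0.01.

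Calls with a change of at least 2-fold were rarer. Clone #3-1 had 0 such members (2.12% of all probes), and clone #4-7 had 2, both of them the CASP4 probes (1.71% of all probes). Between the clones 4 members passed with at least 2-fold, the CASP4 probes and both brighter CASP10 probes (2.48% of all probes). Called in both clones in the same direction were 2 members, a CASP8 probe and the CASP6 probe, where 15.4% of all probes were. Called in both clones in opposite directions were 3 members, both brighter CASP10 probes and a CASP2 probe, where 3.56% of all probes were.

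**Figure D2:**
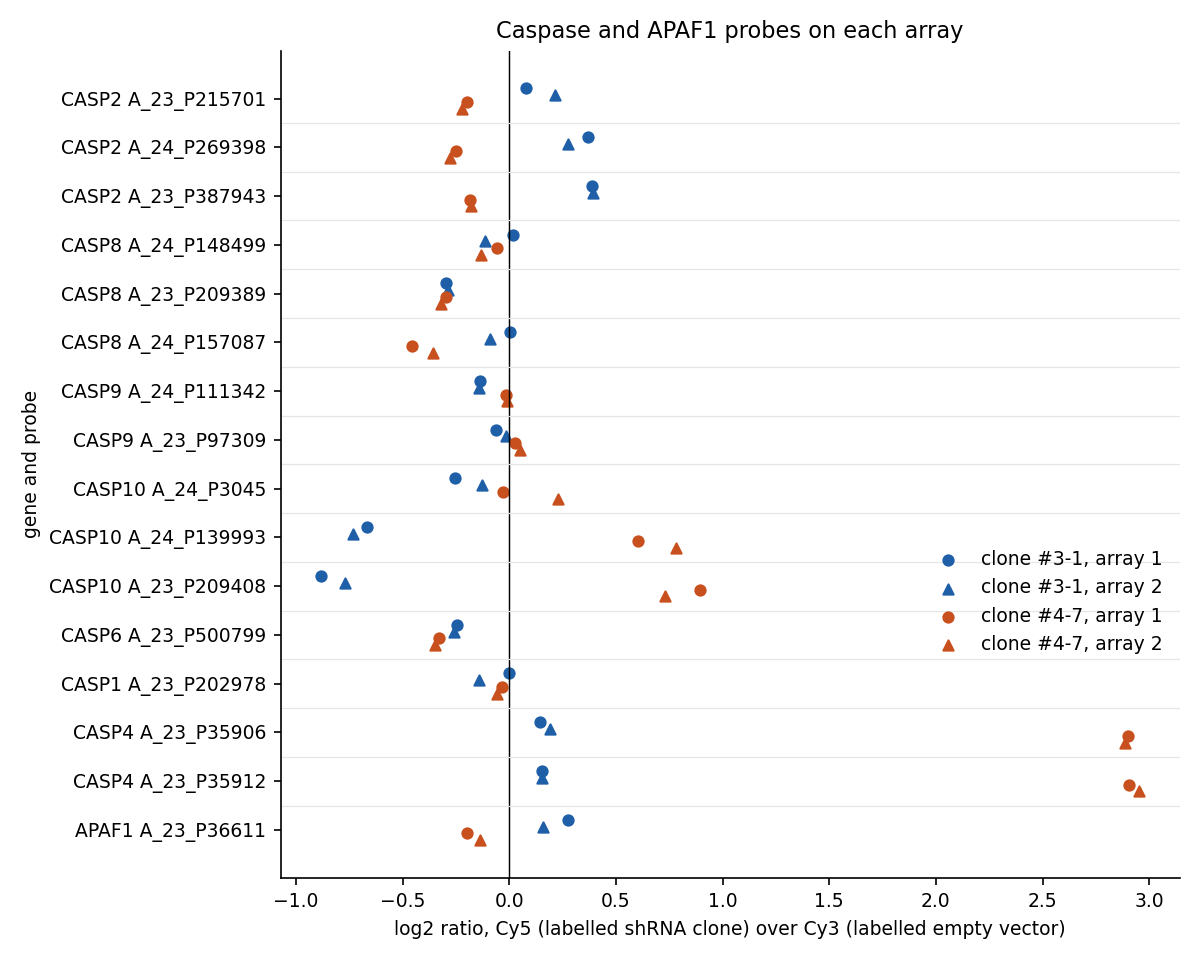
Each point is the log2 ratio of Cy5 over Cy3 of a probe on an array, for all 16 member probes, with clone #3-1 in blue and clone #4-7 in orange and the arrays of a clone as circles and triangles. The CASP4 probes stand near 2.9 on the arrays of clone #4-7 and under 0.2 on those of clone #3-1, and both brighter CASP10 probes and the CASP2 probes lie on opposite sides of 0 in the clones.

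CASP4, which binds bacterial lipopolysaccharide in the cytosol, was the member with the largest ratio. Probe A_23_P35906 (hg17 chr11:104318839-104318898, minus strand) had log2 ratios of 0.14 and 0.19 on the arrays of clone #3-1 and of 2.90 and 2.89 on those of clone #4-7. Probe A_23_P35912 (chr11:104320702-104320761) had 0.15 and 0.15, then 2.90 and 2.95. Both probes were near 0 in the first clone and far above it in the second. The mean in clone #4-7 was 2.89 ± 0.01 and 2.93 ± 0.03 (SD, n = 2 arrays), which is 7.42-fold and 7.61-fold higher in Cy5, with an adjusted p = 3.88e-06 for each in limma. By log2 ratio they had ranks 8 and 7 among all 41000 probes in that clone. In clone #3-1 the means of 0.17 and 0.15 were not called (limma's unadjusted p = 0.00214 and 0.00309, adjusted p = 0.00575 and 0.00784). The clones differed by -2.72 and -2.77 (clone #3-1 minus clone #4-7, limma's adjusted p = 1.58e-05 for each).

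The channels showed where this difference lay. The processed Cy3 intensity of A_23_P35906 was 7650 and 7046 on the arrays of clone #3-1 and 894 and 876 on those of clone #4-7. Its Cy5 intensity was 8468, 8152, 7245 and 6941 in the same order. The Cy3 signal thus stood 8.29-fold higher on the arrays of clone #3-1, and the Cy5 signal 1.17-fold higher. A_23_P35912 gave 8.34-fold in Cy3 and 1.14-fold in Cy5. CASP4 was thus bright in both dyes with clone #3-1 and in Cy5 with clone #4-7, and dimmer, though still well above background, in Cy3 with clone #4-7. Its Cy3 signal there still lay above the median of all probe spots in Cy3 on those arrays, 148 and 143.

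**Figure D3:**
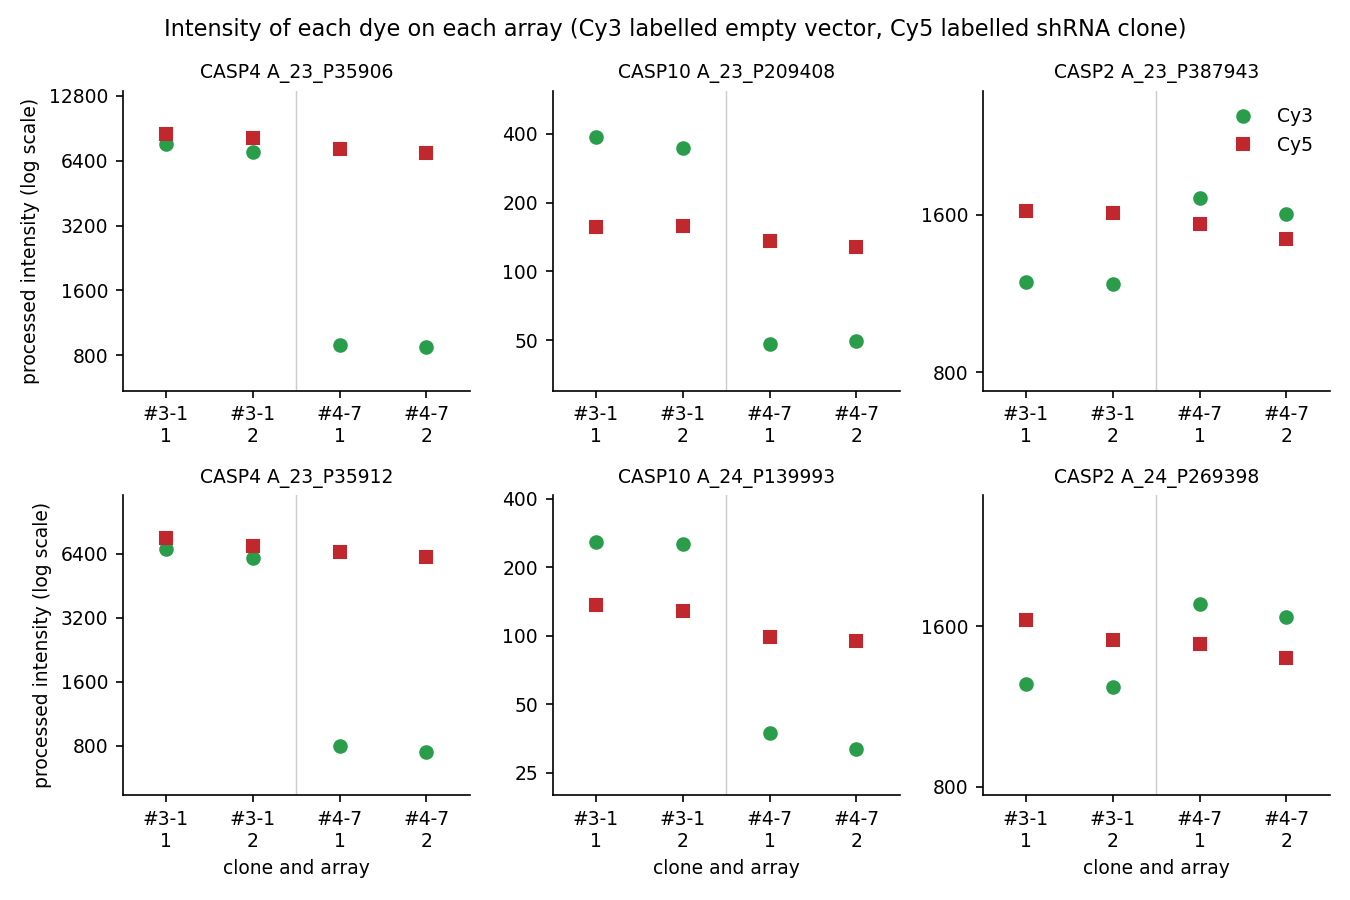
Processed intensity of each dye (log scale, Cy3 as green circles and Cy5 as red squares) on each of the 4 arrays, for probes of CASP4, CASP10 and CASP2. For CASP4 the Cy3 points drop from 7650 and 7046 to 894 and 876 between the clones in the upper panel while the Cy5 points stay between 6941 and 8468.

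CASP5, which lies next to CASP4 on chromosome 11 in RefSeq and is its closest relative, had the pattern nearest to that of CASP4. Likeness was the Euclidean distance over the log2 ratios of the 4 arrays from A_23_P35912, the member probe with the smallest F test p, among 19780 probes of other genes with a gene symbol and well above background. The CASP5 probe was 0.38 away, with log2 ratios of 0.31, 0.27, 2.67 and 2.72, and its Cy3 intensity was 1176 and 1152 with clone #3-1 and 144.0 and 144.5 with clone #4-7. The next nearest were LAMA4, a laminin chain, at 0.81, SUNC1 at 1.00, the globin gene HBG1 at 1.44 and SYTL3 at 1.46. CASP4 and CASP5 transcripts are similar in sequence, and signal of either on the other's probe cannot be told apart here.

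Because CASP4 and CASP5 moved together, their promoters are shown from RefSeq (GRCh38.p14, minus strand, 250 bases before to 50 after the start), with capitals where both hold the same base in a global alignment. They lie at chr11:104968525-104968824 and chr11:105023119-105023418.
CASP4: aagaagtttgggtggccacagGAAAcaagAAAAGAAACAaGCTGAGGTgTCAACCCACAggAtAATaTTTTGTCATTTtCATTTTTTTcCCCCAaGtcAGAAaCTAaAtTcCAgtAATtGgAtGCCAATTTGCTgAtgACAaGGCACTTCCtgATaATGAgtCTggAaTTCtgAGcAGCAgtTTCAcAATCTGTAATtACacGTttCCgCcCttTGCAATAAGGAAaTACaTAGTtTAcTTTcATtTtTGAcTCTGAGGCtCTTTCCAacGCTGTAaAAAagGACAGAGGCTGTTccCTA
CASP5: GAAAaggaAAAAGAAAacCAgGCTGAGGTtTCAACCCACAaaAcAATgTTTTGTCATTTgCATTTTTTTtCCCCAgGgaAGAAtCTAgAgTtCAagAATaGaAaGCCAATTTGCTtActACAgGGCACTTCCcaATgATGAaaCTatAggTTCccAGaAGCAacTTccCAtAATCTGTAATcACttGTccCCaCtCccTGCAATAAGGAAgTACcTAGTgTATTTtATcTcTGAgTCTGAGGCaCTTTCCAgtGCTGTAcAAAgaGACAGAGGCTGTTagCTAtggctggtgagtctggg
Of 278 aligned bases, 212 were identical (76.3%). Read on both strands, the GC box GGGCGG was found 1 time in the CASP4 promoter and 0 times in that of CASP5, and 45.0% of the 35116 promoters hold it. TGANTCA, the AP-1 motif, and TATAAA, the TATA box, were found in neither (7.71% and 11.5% of promoters). A match to these letters is a description of the window and not a site.

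CASP1, the caspase that matures interleukin-1β and interleukin-18 on inflammasomes, was not well above background in either channel on any of the 4 arrays. Its probe A_23_P202978 had processed intensities between 3.28 and 3.99 in Cy3 and between 2.78 and 3.26 in Cy5, so no ratio is read from it.

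CASP10, an initiator of the death receptor pathway, has 3 probes on chromosome 2. A_23_P209408 (hg17 chr2:201910002-201910061) had log2 ratios of -0.88 and -0.77 in clone #3-1 and of 0.89 and 0.73 in clone #4-7. A_24_P139993, which ends just before it and so reads nearly the same piece of the transcript, had -0.67, -0.73, 0.60 and 0.78. Both were lower in Cy5 with the first clone and higher with the second. The clones differed by -1.64 and -1.39 (limma's adjusted p = 0.000121 and 0.000177). Their Cy3 intensities were 7.52-fold and 7.42-fold higher on the arrays of clone #3-1, and their Cy5 intensities 1.19-fold and 1.37-fold higher. These are dim probes, at 48.0 to 387 in Cy3 for the brighter of them, and the offset added to the background correction pulls such ratios towards 0. With the processed intensities the differences between the clones were -2.65 and -2.43. Plain background subtraction ended the calls of both probes in the single clones, offset 0 those of A_23_P209408 in both clones, and the authors' table those of both probes in clone #3-1. The differences stayed called, and were -2.45 and -2.10 with plain subtraction.

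The third CASP10 probe, A_24_P3045, lies upstream (chr2:201883217-201883276) and was measured against another transcript record. Its log2 ratios were -0.25, -0.13, -0.03 and 0.23, and none of its tests was called. Cy5 was not well above background on the arrays of clone #3-1. Cy3 was not well above background on the arrays of clone #4-7, and only 1 of them measured Cy5, so no fold is given. The processed Cy3 intensity was 33.7 and 32.5 with clone #3-1, well above background, and 5.08 and 4.31 with clone #4-7. It was thus higher with clone #3-1, as for the other CASP10 probes. The ratios of A_24_P3045 moved with the processing, to -1.61 in clone #3-1 in the authors' table and to 1.53 in clone #4-7 with the processed intensities. With no background correction the probe was called in clone #3-1 and for the difference.

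CASP8, the main initiator of the death receptor pathway and the neighbour of CASP10 on chromosome 2, has 3 probes that did not give the same answer. A_23_P209389 is printed 10 times on each array, and its mean log2 ratio was -0.29 and -0.29 in clone #3-1 and -0.30 and -0.32 in clone #4-7. Its 10 spots ranged from -0.36 to -0.21 over the 4 arrays, so all copies lay below 0. The means of -0.29 ± 0.01 and -0.31 ± 0.02 (SD, n = 2 arrays) were called in both clones, with limma's adjusted p = 0.00062 and 0.000538. Each call was lost when either array of its own clone was left out.

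The CASP8 probe A_24_P157087, which lies just downstream of it, had log2 ratios of 0.00 and -0.09 in clone #3-1 and of -0.46 and -0.36 in clone #4-7. It was called in clone #4-7 (-0.41 ± 0.07, SD, n = 2 arrays, limma's adjusted p = 0.000756), though not without either array of that clone, and it was not called in clone #3-1. The difference between the clones of 0.36 missed the threshold (limma's unadjusted p = 0.00135, adjusted p = 0.00558). The third probe, A_24_P148499, was dim, at 54.9 to 64.8 in both channels, and its log2 ratios of 0.02, -0.11, -0.06 and -0.13 were not called. CASP8 was thus lower in Cy5 in clone #4-7 by 2 of its 3 probes and in clone #3-1 by 1.

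CASP9, the caspase of the apoptosome, showed the smallest ratios of the genes above background. Probe A_24_P111342 had -0.14 and -0.14 in clone #3-1 and -0.01 and -0.01 in clone #4-7. Probe A_23_P97309 had -0.06, -0.02, 0.03 and 0.05. Neither was called in a clone or for the difference, where limma's adjusted p was 0.0504 and 0.20. Both channels of A_24_P111342 were brighter on the arrays of clone #3-1, by 1.31-fold in Cy3 and 1.21-fold in Cy5 before normalization.

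APAF1, the scaffold that recruits caspase-9, has the probe A_23_P36611 on chromosome 12. Its log2 ratios were 0.27 and 0.16 in clone #3-1 and -0.20 and -0.14 in clone #4-7, on opposite sides of 0. No test of it was called, the difference between the clones of 0.38 included (limma's unadjusted p = 0.00106, adjusted p = 0.00465). It is a dim probe, with processed intensities between 71.3 and 98.4.

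CASP2, the caspase of the PIDDosome, has 3 probes on chromosome 7 between 142519474 and 142521346 of hg17. A_23_P387943 had log2 ratios of 0.39 and 0.39 in clone #3-1 and of -0.19 and -0.18 in clone #4-7. A_24_P269398 had 0.37, 0.27, -0.25 and -0.28, and A_23_P215701 had 0.08, 0.21, -0.20 and -0.22. All 3 were higher in Cy5 with clone #3-1 and lower with clone #4-7. The difference between the clones was 0.57 and 0.58 for the first 2 probes (limma's adjusted p = 0.00036 and 0.0007). For the third it was 0.36 and not called (limma's unadjusted p = 0.00157, adjusted p = 0.00629).

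Single clones were called by fewer CASP2 probes. In clone #3-1 the means of A_23_P387943, 0.39, and of A_24_P269398, 0.32, were called. In clone #4-7 the mean of A_24_P269398, -0.26, was called. That of A_23_P387943, -0.18, missed the threshold of 0.001 (limma's unadjusted p = 0.00107, adjusted p = 0.00341). The call of A_24_P269398 in clone #3-1 was lost without array 1 of that clone or without either array of clone #4-7, and its call in clone #4-7 without either array of that clone and with the replicate number as a block. As for CASP4, the Cy3 signal differed more between the clones' arrays, by 1.38-fold to 1.46-fold over the 3 probes, than the Cy5 signal, by 1.09-fold to 1.12-fold. The direction was the opposite of that of CASP4 and CASP10, with Cy3 brighter on the arrays of clone #4-7.

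CASP6, the executioner among the members, has 1 probe, A_23_P500799 (hg17 chr4:110968249-110968308). Its log2 ratios were -0.25 and -0.26 in clone #3-1 and -0.33 and -0.35 in clone #4-7. All arrays were lower in Cy5, and the means of -0.25 ± 0.01 and -0.34 ± 0.01 (SD, n = 2 arrays) were called in both clones, with limma's adjusted p = 0.000989 and 0.000375. The call in clone #3-1 was lost without any of the 4 arrays, and that in clone #4-7 without either of its own. The clones did not pass the test of their difference (0.09, limma's adjusted p = 0.145).

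The members were then set beside 63 other genes that act with caspases, each read from its brightest probe. In clone #3-1, 23 of these were called (10 higher in Cy5 and 13 lower), in clone #4-7, 25 (15 and 10), and for the difference, 21 (6 higher in clone #3-1 and 15 lower). These are 36.5%, 39.7% and 33.3% of the genes, beside 32.6%, 31.0% and 22.5% of all probes. These shares are not of like kinds, as a gene stands for its brightest probe. Of all 41000 probes only 26917 were well above background in both channels on all arrays. The lists below are small, and their shares are to be read beside those of all probes with this limit.

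Of 6 genes, other caspases with the paracaspase, 2 (33.3%) were called in each clone, both higher in Cy5. They were CASP5, at 0.29 and 2.70, and MALT1, the paracaspase of lymphocyte signalling, at 1.34 and 1.75. CASP12 and CASP14 were not well above background in both channels on all arrays. Of 7 inhibitor of apoptosis genes, 3 (42.9%) were called in each clone. BIRC3, a ubiquitin ligase that keeps death receptor signalling from killing the cell, had log2 ratios of -1.30 and -1.37 in clone #3-1 and of 1.03 and 0.98 in clone #4-7, a difference of -2.34 (limma's adjusted p = 2.89e-05) in the same direction as CASP10. BIRC5, survivin, was higher in Cy5 in both at 0.84 and 0.58. BIRC2, at -0.57 and 0.07, was called for the difference. XIAP, a direct inhibitor of caspase-9, gave 0.10 and 0.12 and was not called.

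Of 12 genes of the death receptor pathway, 5 were called in clone #3-1 (3 higher and 2 lower in Cy5) and 4 in clone #4-7, all higher. FADD, the adaptor of CASP8 and CASP10, was called in both at 0.40 and 0.53, higher in Cy5, and so were the receptor FAS at 0.72 and 0.20 and the decoy receptor TNFRSF10C at 0.33 and 0.72. The receptors TNFRSF10A (-0.33 and 0.07) and TNFRSF1A (-0.23 and 0.16) were called for the difference. The first probe of CFLAR, the inhibitor encoded beside CASP10, was at -0.04 in clone #3-1 and 0.78 in clone #4-7, but its other probe was lower in Cy5 in both, at -0.81 and -0.50. Of 6 genes of the apoptosome and mitochondrial release, 3 (50%) were called in clone #3-1 and 2 (33.3%) in clone #4-7. The protease HTRA2 was lower in Cy5 in both (-0.75 and -0.31). The brightest probe of CYCS, cytochrome c, was higher in Cy5 in both (0.31 and 0.33), but its 3 probes disagreed in sign. The nuclease ENDOG, at -0.62 and -0.02, was called for the difference. Of the 2 PIDDosome genes, CRADD was called in clone #4-7, at 0.39.

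Of 12 inflammasome genes and partners of CASP1 or CASP4, 3 were called in each clone, all lower in Cy5. This is 25%, beside 32.6% and 31.0% of all probes, and it is not read as low because many of these genes were near background. PYCARD, NLRP3, NLRC4, AIM2, CARD16, CARD18 and IL1B were not well above background in both channels on all arrays. IL18, the cytokine that caspase-1 matures, was the furthest from 0 at -2.13 and -1.20. GSDMD, the pore protein that caspase-1 and caspase-4 cut, was at -0.36 and -0.40, and NLRP1, an inflammasome sensor, at -0.84 and -0.47. All 3 genes were lower in Cy5 with both clones, unlike CASP4. The other NLRP1 probes gave -0.49 and -0.29, and -0.39 and -0.06, the last of which was not called in clone #4-7. Of 10 BCL2 family switches, 4 (40%) were called in clone #3-1 and 6 (60%) in clone #4-7. BAK1, a pore former, was higher in Cy5 in both (0.41 and 0.92) and PMAIP1 lower in Cy5 (-0.54 and -0.94). The brightest probes of BCL2 (-0.12 and 0.00) and BBC3 (-0.17 and -0.05) were called in neither clone. Other probes of these genes were called in both. For BCL2 such a probe gave 1.08 and 0.78, and for BBC3 they gave -0.88 and -1.06, and -0.48 and -0.65. BID, which caspase-8 cuts, was higher in Cy5 in both at 0.25 and 0.62, whereas its other probe gave 0.74 and 0.07. MCL1 (0.25 and -0.36), BCL2L11 (0.24 and -0.41) and BCL2L1 (-0.14 and 0.35) were called for the difference. The other BCL2L1 probe gave 0.02 and 0.29 and was not called for it. The BCL2L11 probes disagreed in sign in clone #4-7, as the others gave 0.40 and 0.05, 0.48 and 0.20, and 0.02 and -0.20. Of 8 cleaved targets, 3 (37.5%) and 4 (50%) were called, with PARP1 lower in Cy5 in both (-0.46 and -0.74) and ROCK1 higher (0.79 and 0.69). GAS2 was not well above background in both channels on all arrays. LMNA (0.18 and 0.48) and ACIN1 (0.19 and -0.17) were called for the difference. The other LMNA probe was called for it too, but gave -0.05 in clone #3-1 and 0.34 in clone #4-7.

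**Figure D4:**
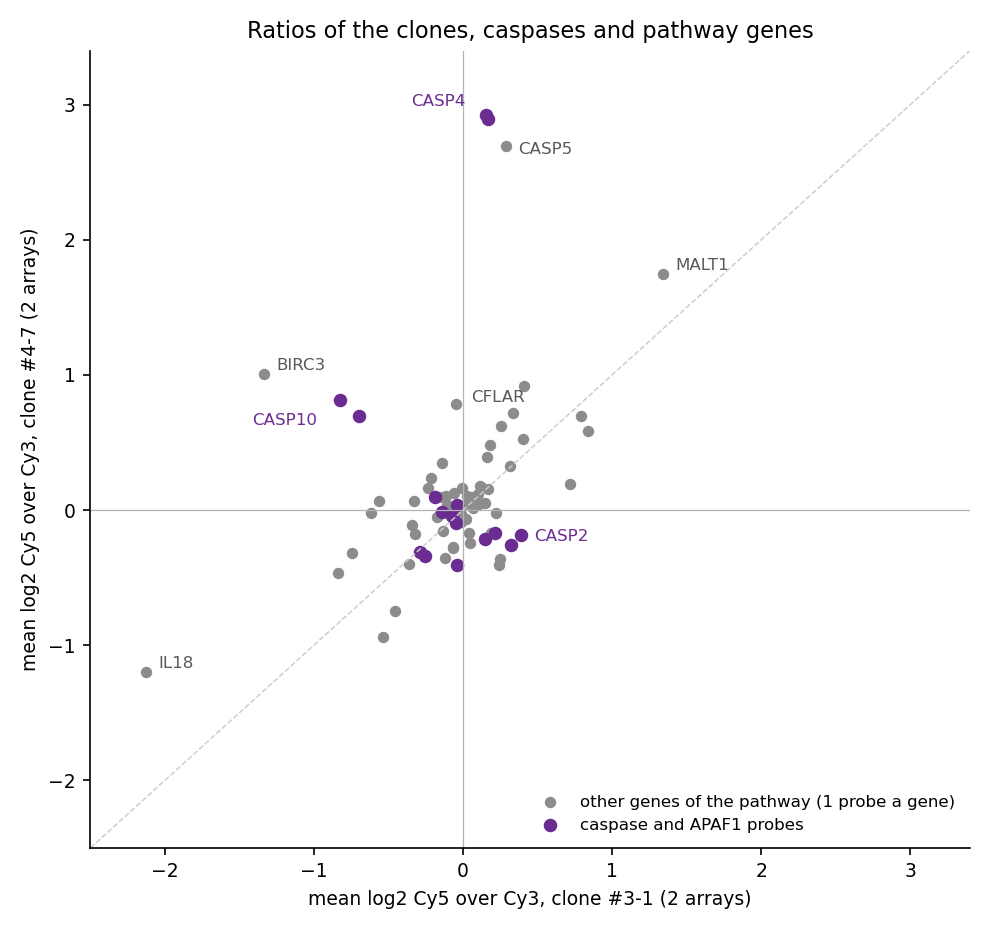
Mean log2 ratio of Cy5 over Cy3 in clone #4-7 against that in clone #3-1 (2 arrays each), for the 16 member probes in purple and 63 pathway genes in grey, with equal ratios on the dashed line. CASP4 and CASP5 stand apart at 0.15 to 0.29 in clone #3-1 and at 2.70 to 2.93 in clone #4-7, and CASP10 and BIRC3 lie in the upper left with opposite signs in the clones.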

How the data were processed

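The authors deposited, for 4 Agilent 2-colour arrays (2 per clone), the mean intensity of each spot and the median intensity of its local background in both channels, together with processed intensities, log10 ratios and flags (read as a score of 0 or 1), from Feature Extraction 8.5.1.1 per the submitters' processing notes. They also deposited a table of log10 ratios, which lay within 0.005 of those of the scanner files. All arrays were on 1 slide, so slide and clone were not confounded. Between 68.5% and 72.6% of the probe spots of a channel were well above background.

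Mean intensities were corrected with normexp (offset 50, fitted on all spots), control spots and outlier flags were weighted 0, and ratios were normalized by loess within and quantiles between arrays in limma 3.58.1 (R 4.3.3). Spots of a probe were averaged as log2 ratios. The linear model had 1 coefficient per clone, was fitted over all 4 arrays and 41000 probes, and was tested on simulated data. Each ratio was tested against 0, which leaves out the spread of the control, 1 sample. The threshold was an unadjusted p of 0.001, after the methods, with Benjamini-Hochberg values beside it. All member probes are reported, pathway genes where called in both clones or for the difference, and the 5 probes nearest in pattern. The comparison of single channels was chosen after their values were seen, and so were the pathway genes named without such a call. The members and lists were chosen with earlier results of these data known. Epithelial markers KRT8, KRT18, KRT19, CDX2, TACSTD1 (EPCAM) and CDH1 were well above background on all arrays, and VIL1 and CEACAM5 on none. Of markers of other cell types, PTPRC, PECAM1, CDH5, COL1A2 and COL3A1 were on none, whereas CD14, COL1A1 and 1 of 2 CD3E probes were on all 4, and their part in the results was not tested. Of the 16 probes, 15 matched a current RefSeq record, all under the same symbol, and 6 of the 8 genes have a RefSeq promoter. Coordinates are hg17 as in the files, whose exons and UTRs were not assigned here.

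The alternatives were another background correction (normexp with offset 0, plain subtraction or none), processed intensities, the authors' table, another normalization within or between arrays, a filter on dim probes, an intensity trend, the adjusted threshold, each clone alone, the replicate block, each array left out, and for pathway genes the mean over a gene's probes.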

Additional observations from a re-analysis of the deposited data

Results flagged for a closer look

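The clones differed from each other past the threshold, by the test of the difference itself in limma, for 6 member probes (clone #3-1 minus clone #4-7, log2 Cy5 over Cy3, 2 arrays each). The CASP4 probes A_23_P35912 and A_23_P35906 differed by -2.77 and -2.72. The CASP10 probes A_23_P209408 and A_24_P139993 differed by -1.64 and -1.39. The CASP2 probes A_23_P387943 and A_24_P269398 differed by 0.57 and 0.58. Of all probes, 22.5% passed this test. The 6 were picked by this test, so that the arrays of the clones did not overlap in them is no further support. The share of all probes without overlap was not computed. For all 6 the channel labelled as the shared control, Cy3, differed more between the clones' arrays than the channel labelled as the clone, and the part of this in the result was not tested. The median difference over all probes above background was larger in Cy3 too.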

How the results depend on the processing

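The CASP4 calls in clone #4-7 and the differences between the clones of CASP4, both brighter CASP10 probes (A_23_P209408, A_24_P139993) and the CASP2 probe A_23_P387943 kept their direction and side of the threshold under every alternative run. Counts of member probes called in clone #3-1, in clone #4-7 and for the difference (6, 8 and 6) moved more. With offset 0 they were 2 and 5 in the clones, with plain subtraction 1 and 3, and with no correction the difference had 10. The authors' table gave 3 in clone #3-1, the intensity trend 10 there and 10 for the difference, and the adjusted threshold 11 in clone #3-1. For pathway genes (23, 25 and 21), offset 0 gave 13 in clone #3-1 and 7 for the difference, plain subtraction 11, 15 and 7, and processed intensities 14 in clone #3-1 and 13 for the difference. The trend gave 39, 41 and 35 and the adjusted threshold 43, 44 and 35. The cause was not tested. Leaving out each array in turn gave 3 to 4, 4 to 8 and 6 to 7 member probes, and 14 to 21, 16 to 24 and 8 to 13 pathway genes. The members called in clone #3-1 were 3 without its array 1 and 4 without any other array, and those in clone #4-7 were 4 without either of its own arrays.

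Calls of CASP6, of CASP8, of both brighter CASP10 probes in the single clones and of the CASP2 probe A_24_P269398 were lost under several of these settings with their direction kept. The differences of APAF1 (up to 0.69) and the CASP2 probe A_23_P215701 (up to 0.71), not called, were called in 4 and 5 of 16 alternatives. That of the CASP8 probe A_24_P157087 was called in 4 of 16. In clone #4-7 the CASP2 probe A_23_P387943 was called in 5 of 17, and in clone #3-1 each CASP4 probe in 3 of 17. Several other values not called at first were called in fewer. Signs turned for values near 0 that were not called. The CASP1 difference was 0.015 with processed intensities, -0.097 to 0.043 with an array left out, and 0 in the authors' table, where both clones also gave 0. The CASP9 probe A_24_P111342 gave 0.0061 in clone #4-7 in that table. With an array left out, the CASP8 probe A_24_P148499 gave -0.021 to 0.11 for the difference and -0.11 to 0.018 in clone #3-1, where A_24_P157087 gave -0.091 to 0.0041. The CASP10 probe A_24_P3045 gave -0.029 to 0.23 in clone #4-7, and its difference was -3.12 to -0.16 over all alternatives.

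The replicate numbers did not pair the arrays (r = -0.01 between deviations, from 2 pairs only). The replicate block gave 6, 7 and 6 members and 21, 24 and 18 pathway genes, and ended 1 call, that of the CASP2 probe A_24_P269398 in clone #4-7 (-0.26). Each clone fitted alone gives no test of the difference. Signal near background limits CASP1 and the CASP10 probe A_24_P3045.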
